A study of Rattus norvegicus with 18 samples.

Results

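Border and infiltrating macrophage genes were followed in RNA-seq libraries of rat cerebral cortex after subarachnoid hemorrhage (SAH), that is, bleeding into the fluid space around the brain. The 8 genes were Lyz2, Ccr2, Mrc1, Lyve1, Ms4a7, Pf4, Clec4a2 and Clec10a. They were chosen by their roles as markers after their levels in these same libraries had been seen, and were picked out of the 30735 genes of the count table by symbol. Of these, 7 were matched to a gene and all 7 passed the filter on low counts, as did 18444 genes in all. Ccr2 was not analysed here. The animals were adult Sprague Dawley rats with no genetic change. SAH was made by pushing a filament up the internal carotid artery until it pierced the vessel, and sham rats had the same operation without the piercing. Cortex was collected 1 day (SAH 1d) or 7 days (SAH 7d) after surgery, with 6 libraries in each SAH group and 6 in the sham group. When the sham cortex was taken, and the sex of the rats, are not known from the labels or methods. The study took cortex from the operated side and rinsed it with saline, whereas the labels speak of both sides, so the side is uncertain.

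Border macrophages are the resident macrophages of the meninges and of the spaces around blood vessels. They carry the mannose receptor CD206, encoded by Mrc1, and many carry LYVE1, a receptor for hyaluronan. Monocytes enter the brain from the blood after injury, guided by CCL2 and related chemokines that act on the receptor CCR2, and become macrophages there. Lyz2 encodes lysozyme M, which is made by monocytes, macrophages and neutrophils. Clec4a2 and Clec10a encode C-type lectin receptors of myeloid cells, Ms4a7 encodes a membrane-spanning protein of macrophages, and Pf4 encodes platelet factor 4, a chemokine known from platelets and also made by border macrophages. In bulk tissue, more cells of a type and more RNA per cell cannot be told apart.

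The sequences before the transcription start are shown for 3 of the genes, Lyz2 for having the widest range of levels across libraries, Lyve1 for having the narrowest relative to its lowest value, and Mrc1, picked after the search, for holding the most matches to the motif. RefSeq promoter entries (build GRCr8) were found for 5 of the 7 genes. The 250 bases before the start were searched on both strands for GAGGAA, the core recognized by PU.1, a transcription factor of myeloid cells. Matches are in capitals, and TTCCTC is a match on the other strand.
Lyz2, chr7:54798012-54798261, minus strand: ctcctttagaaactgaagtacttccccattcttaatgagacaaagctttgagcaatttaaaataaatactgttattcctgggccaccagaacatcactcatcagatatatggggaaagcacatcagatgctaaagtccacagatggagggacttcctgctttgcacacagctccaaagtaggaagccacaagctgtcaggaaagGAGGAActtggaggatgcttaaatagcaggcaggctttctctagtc
Mrc1, chr17:82157475-82157724, plus strand: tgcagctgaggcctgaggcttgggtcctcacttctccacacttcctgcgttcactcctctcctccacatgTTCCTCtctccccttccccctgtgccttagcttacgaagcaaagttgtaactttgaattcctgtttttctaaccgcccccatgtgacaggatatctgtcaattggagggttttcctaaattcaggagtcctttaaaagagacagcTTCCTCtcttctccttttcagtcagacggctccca
Lyve1, chr1:174410978-174411227, minus strand: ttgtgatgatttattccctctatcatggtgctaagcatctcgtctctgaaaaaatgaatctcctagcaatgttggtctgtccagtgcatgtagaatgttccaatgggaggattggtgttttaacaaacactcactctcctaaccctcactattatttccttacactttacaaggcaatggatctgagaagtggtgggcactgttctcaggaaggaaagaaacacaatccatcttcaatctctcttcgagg
Lyz2 held 1 match, 46 bases before the start, and Mrc1 held 2 matches, at 180 and 35 bases before the start. Lyve1, Clec4a2 and Ms4a7 held none in this window. The motif was in 23.3% of all 33469 promoter entries of this length. A second motif, TTGCNNAA, typical of C/EBP factors, was found once, in Lyz2 at 203 bases before the start, and was in 9.2% of the entries. These matches describe letters in the reference and not sites of binding.

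Sequencing depth was similar between groups. The total counts ranged from 27270026 to 38271014 per library. Defining genes of cortical neurons were abundant in every library, with summed levels of 2295 to 9780 CPM (counts scaled to a common library size) over 6 genes. Library SAH 7d-5 stood apart: it had the lowest neuron sum of the 18, and the highest sum of 7 genes of meningeal fibroblasts (4211 CPM, 9.3 times the next SAH 7d library). Its sum of 5 red cell genes was 1.69 CPM, against 7.58 to 65.3 CPM in the other SAH 7d libraries. In SAH 1d, library SAH 1d-3 was high for monocyte genes and for the CCR2 ligands. Choroid plexus genes summed to 740.7 CPM in SAH 1d-4 and to 1070 CPM in SAH 1d-6. Results that rest on SAH 7d-5 or SAH 1d-3 are given with and without these libraries. Of all tested genes, 25.1% had their highest level of the 18 libraries in SAH 7d-5 and 17.2% in SAH 1d-3.

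The macrophage genes differed widely in level. In sham cortex Lyz2 was by far the most abundant, at 42.3 ± 7.57 FPKM (SD, n = 6), a scale that corrects for transcript length. Clec10a (2.49 ± 1.13), Mrc1 (2.22 ± 0.89), Pf4 (1.88 ± 0.843) and Lyve1 (1.74 ± 0.659) followed on the same FPKM scale. Neighbours among these 4 differed by less than the smaller of their SDs. Ms4a7 stood at 0.229 ± 0.157 FPKM and Clec4a2 at 0.0364 ± 0.0892 FPKM in sham. In SAH 1d the order was Lyz2 (119.7 ± 131 FPKM), Clec10a (4.03 ± 1.62), Mrc1 (2.72 ± 0.698), Pf4 (1.94 ± 0.691), Lyve1 (1.81 ± 0.452), Clec4a2 (0.727 ± 0.916) and Ms4a7 (0.601 ± 0.544). Here Pf4 and Lyve1, and Clec4a2 and Ms4a7, differed by less than the smaller of their SDs, and Lyz2 and Clec10a, and Clec10a and Mrc1, by less than the larger. Without SAH 1d-3, Lyz2 was at 66.4 ± 11.7 FPKM (n = 5) and Clec4a2 at 0.357 ± 0.158, below Ms4a7 at 0.544 ± 0.587. In SAH 7d the SDs of Lyz2, Pf4, Mrc1, Clec4a2 and Ms4a7 exceeded their means. Without SAH 7d-5 the order was Lyz2 (90.1 ± 45.8 FPKM, n = 5), Clec10a (4.43 ± 1.36), Mrc1 (3.83 ± 1.42), Pf4 (2.63 ± 1.48), Lyve1 (2.04 ± 0.902), Ms4a7 (0.423 ± 0.181) and Clec4a2 (0.287 ± 0.234), and neighbours from Clec10a to Lyve1, and the last pair, differed by less than the smaller of their SDs.

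**Figure D1:**
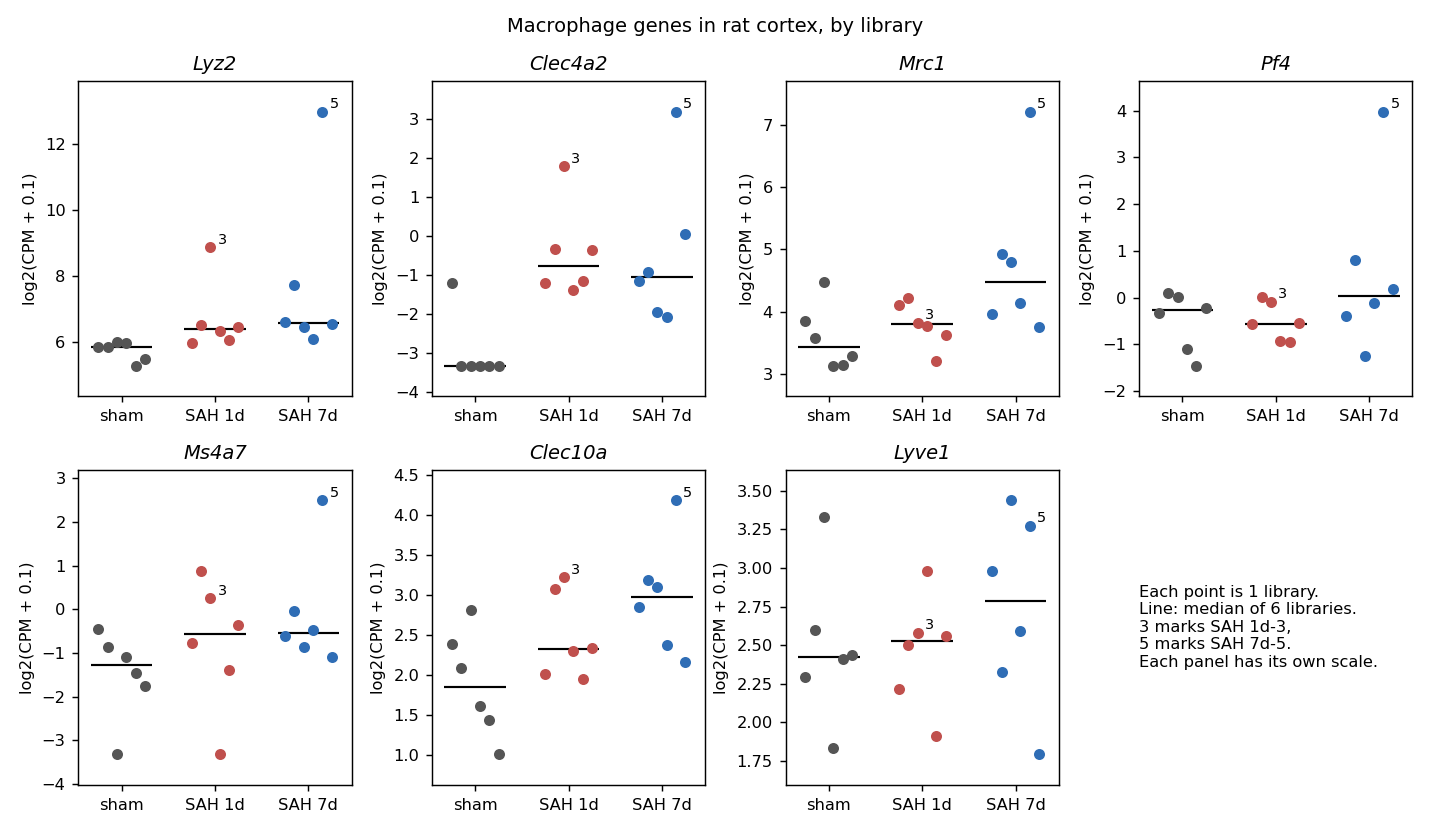
Level of each macrophage gene in each library, as log2(CPM + 0.1), with points for libraries and lines for group medians. SAH 7d-5 is the highest point of its group for 6 of the 7 genes, Lyve1 being the exception, and SAH 1d-3 stands apart for Lyz2 and Clec4a2.

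Lyz2, the lysozyme gene of monocytes, macrophages and neutrophils, was higher after SAH, and its range was set by individual libraries. In sham it lay between 38.9 and 63.6 CPM with a median of 57.7 CPM. In SAH 1d it lay between 63.0 and 465.9 CPM with a median of 84.4 CPM, and SAH 1d-3 was 5.13 times the next library. In SAH 7d the libraries read 97.99, 210.7, 87.7, 68.8, 8001 and 93.3 CPM in the order of their numbers. SAH 7d-5 was therefore 38 times the next library and held 93.5% of the group's sum. In that library 264636 counts, or 0.809% of all counts, fell on this 1 gene, against at most 0.021% in the other SAH 7d libraries. All 6 SAH 7d libraries exceeded every sham library, and 5 of 6 SAH 1d libraries did so. Groups without overlap in this direction were seen for 0.797% of tested genes between SAH 7d and sham.

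Clec4a2, a lectin receptor gene of myeloid cells, was close to undetected in sham and present after SAH. In sham, 5 of 6 libraries had no count, and sham-1 had 10 counts (0.333 CPM). A count of 0 allows up to 3 counts in a library, so low levels in sham were not detectable at this depth. In SAH 1d the 6 libraries held 11, 22, 133, 8, 10 and 22 counts, or 0.332, 0.695, 3.37, 0.286, 0.349 and 0.677 CPM. In SAH 7d they held 10, 14, 5, 4, 300 and 28 counts, or 0.348, 0.425, 0.161, 0.137, 9.07 and 0.932 CPM. All 12 SAH libraries thus had counts, and the highest were again the libraries that led for Lyz2, at 4.85 and 9.73 times the next of their group. In each SAH group 4 of 6 libraries lay above sham-1, so both groups overlapped with sham. Clec4a2 belongs to a cluster of similar genes that may share reads, so its counts are uncertain. Its relatives, looked at after their values were seen, were Clec4a1, Clec4a3 and Clec4a. In SAH 1d versus sham their log2 fold changes were 1.17 (adjusted p = 0.00396), 1.06 (adjusted p = 0.00566) and 0.73 (adjusted p = 0.103) by edgeR. Lyc2, a lysozyme gene close to Lyz2, stood at 1.86 (adjusted p = 0.077).

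Mrc1 encodes the mannose receptor that marks border macrophages, and its level at 1 day was much the same as in sham. In sham it lay between 8.64 and 22.2 CPM with a median of 10.8 CPM, and in SAH 1d between 9.11 and 18.5 CPM with a median of 13.8 CPM. In SAH 7d the libraries read 15.4, 30.1, 27.8, 17.6, 148.6 and 13.4 CPM. SAH 7d-5 was 4.93 times the next library, and 2 of the other 5 SAH 7d libraries also lay above every sham library. The groups overlapped in each comparison.

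Lyve1, the hyaluronan receptor gene of border macrophages and lymphatic vessels, did not share the rise of the others in SAH 7d-5. It lay between 3.46 and 9.96 CPM in sham, between 3.67 and 7.80 CPM in SAH 1d and between 3.36 and 10.7 CPM in SAH 7d, with medians of 5.27, 5.67 and 6.86 CPM. SAH 7d-5 read 9.55 CPM, below SAH 7d-3 at 10.7 CPM and sham-3 at 9.96 CPM. This was 1.65 times the sham mean, where Mrc1 was 11.8 times its sham mean in the same library. Lyve1 is also used by lymphatic endothelium. The 5 lymphatic genes summed to 101.9 CPM in SAH 7d-5, 1.62 times the next SAH 7d library, against 29.7 to 37.95 CPM in sham and 79.2 to 275.6 CPM in SAH 1d. Of the 4 that were tested, Pdpn read 90.97 CPM in SAH 7d-5, the highest of its group (mean 43.8 CPM), and Flt4 read 2.45 CPM (mean 2.60 CPM). Prox1, the factor that defines these vessels, read 8.34 CPM there (mean 8.49 CPM), and Mmrn1 had no count.

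Pf4 and Ms4a7 were low except in SAH 7d-5. Pf4 lay between 0.265 and 0.967 CPM in sham, with 8 to 28 counts per library, and between 0.419 and 0.915 CPM in SAH 1d. In SAH 7d it read 0.661, 1.64, 0.323, 0.821, 15.7 and 1.03 CPM, so that SAH 7d-5 was 9.6 times the next library. Platelets also make Pf4, and their other markers were given side by side: the sum of the 8 platelet genes was 2.51 CPM in SAH 7d-5, within the SAH 7d range of 1.30 to 2.60 CPM. Only 2 of these 8 genes passed the filter, and neither was called in any comparison. Ms4a7 lay between 0 and 0.633 CPM in sham and between 0 and 1.74 CPM in SAH 1d, with 1 library at 0 counts in each group. In SAH 7d it read 0.557, 0.880, 0.451, 0.616, 5.56 and 0.366 CPM, and SAH 7d-5 was 6.32 times the next library.

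Clec10a, a galactose-binding lectin gene of macrophages and dendritic cells, varied less. It lay between 1.92 and 6.97 CPM in sham with a median of 3.55 CPM, and between 3.77 and 9.25 CPM in SAH 1d with a median of 4.91 CPM. In SAH 7d it read 7.10, 9.04, 8.48, 5.10, 18.1 and 4.40 CPM, and 4 of 6 libraries lay above every sham library. SAH 7d-5 was 2.0 times the next library.

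The comparison of SAH 1d with sham addresses the early response to the bleed. By edgeR's quasi-likelihood test on 12 libraries, Clec4a2 rose by 4.02 ± 1.05 on the log2 scale (SE, n = 6 and 6, adjusted p = 0.0148) and Lyz2 by 1.40 ± 0.47 (adjusted p = 0.042). The sham level of Clec4a2 rests on the 10 counts of sham-1. Without that library all 5 sham libraries were at 0. The SAH 1d mean of Clec4a2 (0.952 CPM) was then at least 47.0-fold higher, taken against a floor of 3 counts over the 5 libraries. This floor bounds the sham side only, and the SAH 1d mean was 0.468 CPM without SAH 1d-3. The fitted log2 fold change without sham-1 was 7.92, which depends on the handling of zeros (edgeR, adjusted p = 0.00697). The SAH 1d levels were above the sham mean in 6 of 6 SAH 1d libraries for both genes, though for Clec4a2 that mean was only 0.0555 CPM. Above every sham library lay 5 of 6 for Lyz2 and 4 of 6 for Clec4a2, so the groups overlapped. SAH 1d-3 held 59.0% of the SAH 1d sum of Clec4a2 and 54.5% of that of Lyz2. Clec4a2 and Lyz2 are 2 of the 7 genes, where 25.4% of all tested genes were called (14.9% higher, 10.5% lower). Both also passed a log2 fold change of 1, as 6.64% of tested genes did. The other genes were not called: Ms4a7 at 1.15 ± 0.77 (adjusted p = 0.286), Clec10a at 0.57 ± 0.32 (adjusted p = 0.213), Mrc1 at 0.17 ± 0.24 (adjusted p = 0.639), Lyve1 at -0.06 ± 0.24 (adjusted p = 0.878) and Pf4 at -0.07 ± 0.35 (adjusted p = 0.907), all by edgeR. The median log2 fold change of all tested genes was 0.00853. Because these genes were picked with earlier results of the data known, the counts describe them and carry no weight as a test of the group.

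The size of the early change depended on single libraries. Without SAH 1d-3, Lyz2 stood at 0.52 ± 0.14 (edgeR, adjusted p = 0.0121), below a 2-fold change, and Clec4a2 at 2.98 ± 0.89 (edgeR, adjusted p = 0.0236), where 28.5% of tested genes were called. The call of Lyz2 was lost when any 1 of the sham libraries was left out (adjusted p of up to 0.085 by edgeR) and when all 18 libraries were fitted together (adjusted p = 0.364, edgeR). DESeq2 called Clec4a2 (adjusted p = 0.00298, where it called 30.3% of tested genes) and gave no adjusted p for Lyz2, and 0.0019 for Lyz2 without SAH 1d-3. The call of Clec4a2 held with each of the 12 libraries left out in turn, with an adjusted p of 0.00697 to 0.034 by edgeR. With all 18 libraries in the fit its adjusted p was 0.0525 by edgeR.

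**Figure D2:**
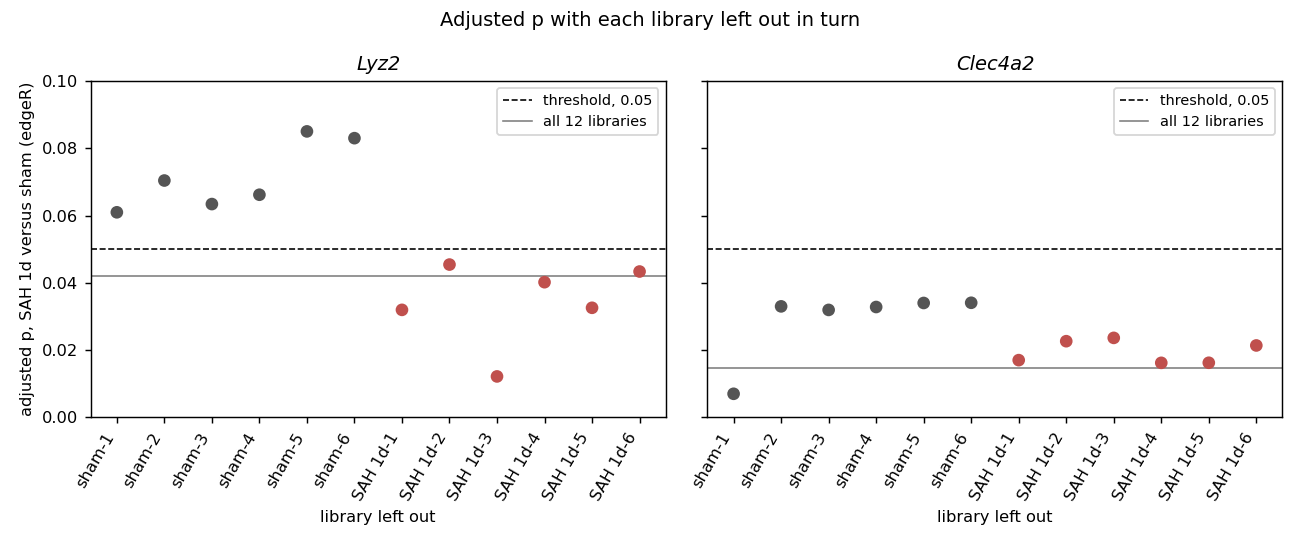
Adjusted p from edgeR for Lyz2 and Clec4a2 in SAH 1d versus sham, with each of 12 libraries left out in turn; the dashed line is 0.05. Lyz2 lies above the line without any 1 sham library, whereas Clec4a2 stays below it throughout.

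The comparison of SAH 7d with sham addresses the late phase. No member was called, and edgeR called 0.0% of tested genes in this comparison, that is, 0 genes. At an unadjusted p under 0.05, 6 of the 7 genes passed, Lyve1 being the exception, where 15.4% of tested genes passed (2842 genes). DESeq2 called 459 genes, or 2.49%, and none of the 7; it gave no adjusted p for Lyz2, Clec4a2, Pf4 and Ms4a7. By edgeR, Clec4a2 stood at 4.96 ± 1.43 (adjusted p = 0.214), Lyz2 at 4.73 ± 1.32 (adjusted p = 0.214), Pf4 at 2.36 ± 0.89 (adjusted p = 0.272), Ms4a7 at 2.13 ± 0.82 (adjusted p = 0.274), Mrc1 at 1.75 ± 0.59 (adjusted p = 0.236), Clec10a at 1.14 ± 0.38 (adjusted p = 0.236) and Lyve1 at 0.29 ± 0.30 (adjusted p = 0.602).

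Without SAH 7d-5 every one of these fold changes was smaller and none changed sign. Lyz2 stood at 1.06 ± 0.25 (edgeR, adjusted p = 0.118), and each of the 5 remaining libraries was above every sham library, at a mean of 2.06 times the sham mean. DESeq2 without SAH 7d-5 called Lyz2 (log2 fold change 1.05, adjusted p = 0.00257), where it called 2.94% of tested genes (542 genes). Without SAH 7d-5, Clec4a2 stood at 2.76 ± 0.99, Ms4a7 at 0.84 ± 0.54, Clec10a at 0.80 ± 0.31, Mrc1 at 0.74 ± 0.28, Pf4 at 0.45 ± 0.42 and Lyve1 at 0.19 ± 0.30 on the log2 scale, none called by edgeR, which again called 0.0% of genes. At an unadjusted p under 0.05, Lyz2, Clec4a2, Mrc1 and Clec10a passed, as did 12.6% of tested genes.

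The comparison of SAH 7d with SAH 1d addresses the change between the phases. None of the 7 genes was called by edgeR, where 1.37% of tested genes were called, and 3 passed at an unadjusted p under 0.05 (14.7% of tested genes). These were Lyz2 at 3.34 ± 1.33 (adjusted p = 0.257, edgeR), Pf4 at 2.43 ± 0.88 (adjusted p = 0.209) and Mrc1 at 1.59 ± 0.57 (adjusted p = 0.202). DESeq2 called Mrc1 only (adjusted p = 0.0491, with 5.49% of tested genes called) and gave no adjusted p for Lyz2, Clec4a2 and Pf4. Ms4a7 stood at 0.99 ± 0.87, Clec4a2 at 0.95 ± 1.04, Clec10a at 0.57 ± 0.36 and Lyve1 at 0.35 ± 0.28 on the log2 scale. The sign of 3 genes turned without SAH 7d-5: Clec4a2 stood at -1.27 ± 0.73, Lyz2 at -0.37 ± 0.54 and Ms4a7 at -0.32 ± 0.67. Mrc1 (0.56 ± 0.24, edgeR, adjusted p = 0.161) and Pf4 (0.50 ± 0.38) had a positive sign without it, and none of the 7 genes was called (8.38% of tested genes were). Without both SAH 7d-5 and SAH 1d-3, Lyz2 was positive again, at 0.51 ± 0.26 (edgeR, adjusted p = 0.214). In that fit Clec4a2 stood at -0.23 ± 0.51 and Ms4a7 at -0.16 ± 0.69. The comparisons share libraries, so their fold changes are not independent of each other.

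**Figure D3:**
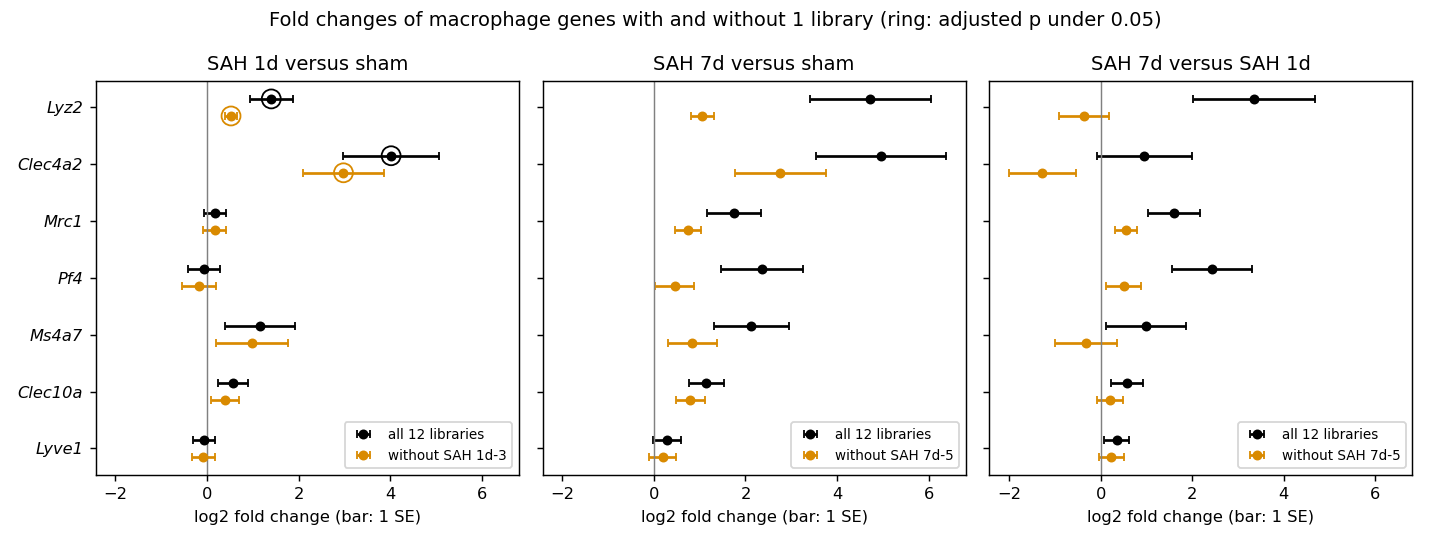
Log2 fold changes by edgeR with bars of 1 SE, with all 12 libraries (black) and without SAH 1d-3 or SAH 7d-5 (orange); rings mark an adjusted p under 0.05. Without SAH 7d-5, Lyz2 falls from 4.73 to 1.06 against sham and from 3.34 to -0.37 against SAH 1d, whereas Lyve1 lies near 0 in every panel. Without SAH 1d-3 as well, Lyz2 was at 0.514 against SAH 1d (not drawn).

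The ligands that recruit and sustain these cells rose at 1 day. Of 5 tested genes for CCR2 ligands and colony-stimulating ligands, 4 were called higher in SAH 1d than in sham and none lower. Over all tested genes, 14.9% were called higher and 10.5% lower. The median log2 fold change of the 5 was 5.91 (0.00853 over all tested genes). Ccl2, the main monocyte chemokine, went from a mean of 0.293 CPM in sham to 56.1 CPM in SAH 1d, a log2 change of 7.55 ± 1.04 (edgeR, adjusted p = 0.000414). Its SAH 1d libraries lay between 8.02 and 247.5 CPM, all above the sham maximum of 0.533 CPM, and SAH 1d-3 was the highest. Ccl7, another CCR2 ligand, rose by 5.91 ± 0.87 (edgeR, adjusted p = 0.000653). Ccl12 had no count in any of the 6 sham libraries. Its SAH 1d mean was at least 86.9-fold higher, taken against a floor of 3 counts over the sham group. Csf1, a growth factor for macrophages, rose by 1.26 ± 0.18 (edgeR, adjusted p = 0.000542), whereas Il34, the other ligand of its receptor, stood at -0.17 ± 0.20 (edgeR, adjusted p = 0.567). The same 4 genes were called higher without SAH 1d-3 (15.4% of tested genes were), with a median of 4.81, Ccl2 at 5.89 ± 0.36 and Ccl7 at 4.81 ± 0.54. In SAH 7d, Ccl2 was at a median of 0.376 CPM, with 22.7 CPM in SAH 7d-5. Against SAH 1d none of the 5 was called with all libraries, and without SAH 7d-5 Ccl2, Ccl7 and Ccl12 were called lower (5.19% of tested genes were). Without SAH 1d-3 none was called, with a median of -2.04.

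Other border macrophage genes were looked at beside the members, from a list of 12 of which 10 passed the filter. In SAH 1d versus sham 5 were called higher (14.9% of all tested genes were) and none lower, with a median log2 fold change of 0.925. Ms4a6a rose by 2.29 ± 0.35 (edgeR, adjusted p = 0.000819), the sialoadhesin gene Siglec1 by 1.80 ± 0.45 (edgeR, adjusted p = 0.0123) and the hemoglobin scavenger receptor gene Cd163 by 1.24 ± 0.24 (edgeR, adjusted p = 0.00317). The endocytic adaptor Dab2 (0.92 ± 0.27) and the transglutaminase subunit F13a1 (0.70 ± 0.20) were also called. Folr2 (0.93 ± 0.33), Ms4a4a (0.99 ± 0.48), Stab1 (0.41 ± 0.20), Colec12 (0.19 ± 0.23) and Maf (-0.19 ± 0.14) were not called. Without SAH 1d-3 the count was again 5 of 10, where 15.4% of tested genes were called higher. In SAH 7d versus sham none of the 10 was called by edgeR, and all 10 had a positive fold change with a median of 1.58, which was 0.607 without SAH 7d-5. The sum of the list was 922.5 CPM in SAH 7d-5, 7.0 times the next SAH 7d library.

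Several genes of a list of other monocyte and monocyte-derived macrophage genes were higher at 1 day. Which cells made these transcripts was not tested. Of 11 tested, 7 were called higher in SAH 1d than in sham (14.9% of all tested genes were), with a median log2 fold change of 3.45. Without SAH 1d-3, 6 were called higher (15.4% of all tested genes were), Ccr1 was not called and the median was 2.36. The galectin gene Lgals3 rose by 4.43 ± 0.40 (edgeR, adjusted p = 2.31e-05), the adhesion receptor gene Cd44 by 3.57 ± 0.52 (edgeR, adjusted p = 0.00063), the integrin gene Itgal by 3.24 ± 0.25 (edgeR, adjusted p = 1.02e-05) and S100a4 by 2.73 ± 0.35 (edgeR, adjusted p = 0.000272). Ccr1 (3.55 ± 1.04) and F10 (2.31 ± 0.53) were called as well, and Ly6c (3.45 ± 1.29), Fcnb (3.98 ± 1.41), Spn (1.11 ± 0.45) and Vcan (0.40 ± 0.31) were not. Without SAH 1d-3, Cd44 stood at 2.80 ± 0.27, Lgals3 at 3.98 ± 0.23, Ccr1 at 1.08 ± 0.41, Ly6c at 0.81 ± 0.89 and Fcnb at 0.65 ± 0.87. In that fit Spn stood at 0.58 ± 0.35 and Vcan at -0.07 ± 0.15. The difference between this list and the border list was not tested. In SAH 7d versus SAH 1d none was called, with a median of -0.0998. Without SAH 7d-5 the median was -2.38, and 3 genes were called lower, Lgals3 and Cd44 among them (5.19% of all tested genes were). Without SAH 1d-3 the median was 0.559, 9 of 11 fold changes were positive and none was called, so the direction depended on which library was left out.

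General myeloid genes and microglial genes frame these changes. Of 10 pan-macrophage genes, 7 were called higher in SAH 1d than in sham (14.9% of all tested genes were), with a median log2 fold change of 1.79. Without SAH 1d-3 all 10 pan-macrophage genes were called higher (15.4% of all tested genes were). Their 3 most abundant genes were Csf1r (0.40 ± 0.16, edgeR, adjusted p = 0.0756), the microglial and macrophage gene Aif1 (0.56 ± 0.21, edgeR, adjusted p = 0.06) and Tyrobp (1.74 ± 0.21, edgeR, adjusted p = 0.000167). Of 9 genes typical of resting microglia, 3 were called lower at 1 day (10.5% of all tested genes were). Without SAH 1d-3, 4 were lower and 1 higher, where 28.5% of tested genes were called in either direction (15.4% higher). In SAH 7d versus SAH 1d, 2 of the 9, Selplg and Tmem119, were called higher (0.282% of tested genes were). Without SAH 7d-5, 3 were called higher and none lower, where 8.38% of tested genes were called in either direction (5.19% lower). With all libraries, Tmem119 rose by 1.56 ± 0.26 (edgeR, adjusted p = 0.0123). Among the most abundant were Gpr34 (-0.81 ± 0.35 at 1 day) and Selplg (-0.69 ± 0.19). In SAH 7d-5 the microglial sum was 1.83 times the next SAH 7d library, against 4.07 times for the pan-macrophage sum.

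Genes of some other cells were also high in an outlying library, some neutrophil genes in both and meningeal fibroblast genes in SAH 7d-5. In SAH 1d-3 the meningeal fibroblast sum was 1.09 times that of the next SAH 1d library. Of 10 neutrophil genes, 3 passed the filter, and 2 of them, Csf3r and S100a9, were called higher in SAH 1d (14.9% of all tested genes were). Without SAH 1d-3, 1 was called higher (15.4% of all tested genes were). The neutrophil sum was 220.4 CPM in SAH 7d-5, 10.5 times the next library, and 71.5 CPM in SAH 1d-3, 4.54 times the next, and Lyz2 is also a neutrophil gene. The members of the list went apart: Mmp8 read 129.7 CPM and Csf3r 89.2 CPM in SAH 7d-5, whereas S100a9, an abundant neutrophil transcript, read 0.695 CPM there and 30.5 CPM in SAH 1d-3. Meningeal fibroblast genes summed to 197.5 to 425.7 CPM in sham, 272.2 to 454.8 CPM in SAH 1d and 285.2 to 452.9 CPM in the other SAH 7d libraries, beside 4211 CPM in SAH 7d-5. There Col3a1 read 1787 CPM, Col1a1 853.3 CPM and Col1a2 621.6 CPM. In SAH 1d versus sham all 6 neuronal genes were called lower (10.5% of all tested genes were) and none higher, with a median log2 fold change of -0.572. The part of these other cells in the macrophage result was not tested.

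The remaining lists were counted in SAH 1d versus sham, where 14.9% of all tested genes were called higher and 10.5% lower. Of 5 dendritic cell genes 2 were called higher at 1 day, of 4 lymphatic endothelial genes 2, of 6 endothelial genes 1 and of 5 choroid plexus genes 3, with none lower in these lists. The share in the endothelial list was close to that over all tested genes, as was that of the meningeal fibroblast list. Without SAH 1d-3 the lymphatic count was 1 and the choroid plexus count 5. Of 7 meningeal fibroblast genes 1 was called higher, Col3a1 at 1.15 ± 0.23 (edgeR, adjusted p = 0.00408), and Dcn (0.65) and Col1a2 (0.10) were not. Astrocyte genes had 1 called in each direction of 5, and none of 5 red cell and 5 oligodendrocyte genes was called. The most abundant genes of these lists are named here with their log2 fold changes. Among astrocyte genes, the filament gene Gfap was called higher (edgeR, adjusted p = 1.37e-06), and Aqp4 (0.26) and Gja1 (-0.16) were not called. In the dendritic list they were -0.12 for Flt3, 0.10 for Zbtb46 and 6.43 for Itgax, and in the lymphatic list 2.45 for Pdpn, 0.30 for Prox1 and 1.04 for Flt4. In the endothelial list they were -0.45 for Slco1a4, 0.34 for Flt1 and 1.01 for Cdh5. Of the genes named from these 3 lists, Itgax, Pdpn, Flt4 and Cdh5 were called. In the choroid plexus list Aqp1 (2.43) was called, and Ttr (4.35) and Folr1 (3.38) were not. In SAH 1d, Ttr had a mean of 269 CPM and a median of 19.0 CPM, and Folr1 4.95 and 0.869 CPM. The neuronal genes Snap25 (-0.73), Nrgn (-1.07) and Slc17a7 (-0.56) were called lower. The globin genes Hba-a1 (0.62), Hbb (1.08) and Hba-a2 (0.69), which may share reads, and the myelin genes Mbp (0.13) and Mobp (0.20) were not called.

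**Figure D4:**
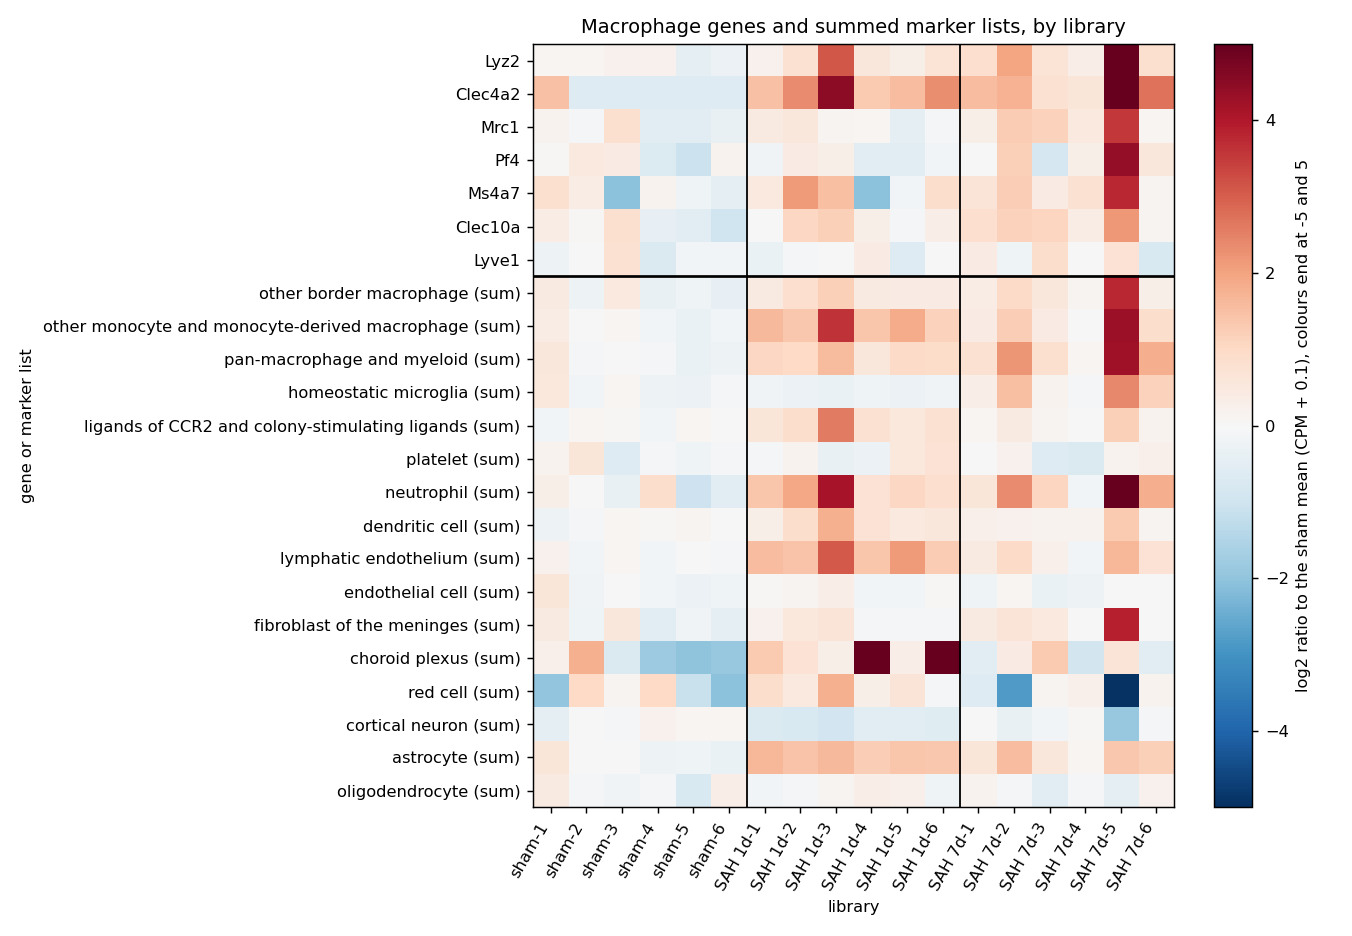
Log2 ratio of each library to the sham mean, on CPM + 0.1, for the 7 macrophage genes (above the line) and for summed marker lists (below it); colours end at -5 and 5. SAH 7d-5 is red for 6 macrophage genes, for myeloid and neutrophil lists and for meningeal fibroblasts, and blue for red cell and neuronal genes, while Lyve1 stays pale.

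The 7 genes did not follow 1 pattern over the libraries. Over 18 libraries, Spearman's rho of log2 CPM between pairs ranged from -0.0886 to 0.842 with a median of 0.516 over 21 pairs, and over the 16 libraries left when both outlying ones were dropped from -0.29 to 0.879 with a median of 0.439. Lyz2 was closest to Clec4a2 (0.842) and Clec10a (0.804), Mrc1 was closest to Clec10a (0.833), and Lyve1 was closest to Clec10a (0.544) and farthest from Clec4a2 (-0.0886). The libraries share the group differences and the 2 outlying libraries, so these values describe the data and no p is given.

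Across 13974 genes with symbols, those most like each gene by Spearman's rho over 18 libraries were named. For Lyz2 these were Arl11 (0.926), Ms4a4e (0.922) and the macrophage lysosomal gene Cd68 (0.92). For Clec4a2 they were the ribosomal protein gene Rpl24 (0.969), the caspase gene Casp8 (0.967) and Ppp1r18 (0.96). For Mrc1 they were the matrix protein gene Thbs2 (0.94), the arginine sensor gene Castor1 (0.932) and the retinoic acid synthesis gene Aldh1a2 (0.915). For Clec10a they were the Wnt inhibitor gene Sfrp1 (0.959), the growth factor gene Bmp6 (0.953) and the transcription factor gene Foxc1 (0.944). For Pf4 they were Apobr (0.886), B4galt4 (0.835) and Sult5a1 (0.812), and for Ms4a7 Ttc23 (0.876), Stx2 (0.862) and Gsta4 (0.836). For Lyve1 the nearest were more distant, with Fmo2 (0.792), Trarg1 (0.713) and Hip1 (0.695). Without the 2 outlying libraries the correlation with the first-named gene was 0.906 for Lyz2, 0.955 for Clec4a2, 0.921 for Mrc1, 0.944 for Clec10a, 0.871 for Pf4, 0.823 for Ms4a7 and 0.782 for Lyve1.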

How the data were processed

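Counts and FPKM values per gene were read for 18 libraries (6 sham, 6 SAH 1d, 6 SAH 7d), which were grouped by their deposited descriptions. The raw counts, whole numbers per gene, were deposited by the authors with no normalization. The deposited FPKM values scale each count by transcript length and library depth. The submitters' processing notes name fastp, HISAT2, DESeq2 1.16.1 and the mouse build mm9, whereas the study names Rnor_6.0 and the gene identifiers are those of rat, so the build is uncertain and no gene coordinates of the files are given. The counting program is not given in the sources used here, reads of similar genes may be split, and a count was not taken as 1 molecule. Total counts were 27270026 to 38271014, and errors reflect the variation among libraries.

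Genes were filtered with filterByExpr on 18 libraries, normalized by TMM and tested two-sided with edgeR 4.0.16 (quasi-likelihood F test, R 4.3.3) on the 12 libraries of each comparison, with Benjamini-Hochberg adjustment over 18444 genes. A gene was called at an adjusted p under 0.05. The SE is the log2 fold change divided by the square root of F. CPM use TMM library sizes, and correlations used log2 CPM with a prior count of 2. The tests were tested on simulated data with 200 changed genes. Alternatives used DESeq2 1.42.0, limma 3.58.1 with voom or on log2(FPKM + 1) and log2(FPKM + 0.1), other filters, a replicate block, all libraries together, and each library left out. DESeq2 without SAH 7d-5 or SAH 1d-3, and the marker lists without these libraries, were chosen after the data were seen.

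The macrophage genes and the marker lists were chosen with earlier results of these data known. Named genes are all members, all tested genes of the border macrophage, monocyte and ligand lists, of the other lists up to the 3 with the highest mean FPKM, and the 3 genes most correlated with each member. A few genes of the marker lists are not reported here by name and remain in the counts and sums. The relatives of Clec4a2 and Lyz2, and further genes of other lists, were named after their values were seen. The libraries are described as separate rats by the study.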

Additional observations from a re-analysis of the deposited data

Results flagged for a closer look

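In 9 of 21 sets of 6 libraries (7 genes in 3 groups), 1 library lay farther from the rest than Dixon's 95% limit for 6 values allows. Chance gives about 1 in 20 for values that follow a normal curve. CPM need not follow one, so the 9 sets are a description and not a test. SAH 7d-5 was that library in 6 sets: it read 8001 CPM for Lyz2, 148.6 for Mrc1, 18.11 for Clec10a, 15.72 for Pf4, 9.07 for Clec4a2 and 5.563 for Ms4a7. Lyve1 was the gene for which it was not. SAH 1d-3 was the library in 2 sets, with 465.9 CPM for Lyz2 and 3.371 for Clec4a2. In sham, sham-1 stood apart for Clec4a2 at 0.3329 CPM because the other 5 libraries had no count, so that any count would have been flagged. These values come from SAH 7d-5, SAH 1d-3 and sham-1 only, and those of the same library are not independent of each other.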

How the results depend on the processing

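Of 520 log2 fold changes of single genes under alternatives, 481 kept their direction and neither gained nor lost a call. Of the others, 13 lost and 2 gained a call and 23 turned their sign. The last 1, Lyz2 by DESeq2 in SAH 1d versus sham, was called by edgeR and had no adjusted p. Several DESeq2 fits of genes not called by edgeR also gave no adjusted p, and these were counted as not called. Only Lyz2 and Clec4a2 in SAH 1d versus sham had a call to lose, so most of the 520 could not lose one. The call held in 13 of 25 alternatives for Lyz2 and in 20 of 22 for Clec4a2. In each comparison with sham, leaving out both outlying libraries repeats a fit without 1 of them. In SAH 1d versus sham, where 2 genes were called, DESeq2 called 1 and the fit with all 18 libraries 0. The filter of at least 10 counts in every library gave 1 call, and limma on FPKM gave 0 at each of 3 settings. Clec4a2 did not pass the 10-count filter or the FPKM filter. It was therefore not tested in the former, and on FPKM only without a filter. With 1 library left out, 1 to 2 genes were called. In SAH 7d versus SAH 1d, where 0 were called, DESeq2 called 1. In SAH 7d versus sham, where 0 were called, DESeq2 without SAH 7d-5 called 1.

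In SAH 1d versus sham, Pf4 was 0.056 and Lyve1 0.049 on log2(FPKM + 1), with or without a filter, and 0.111 and 0.083 on log2(FPKM + 0.1). With 1 library left out, Pf4 ranged from -0.228 to 0.075 and Lyve1 from -0.178 to 0.163. In SAH 7d versus SAH 1d, Clec4a2 was -0.433 with voom, -0.074 on log2(FPKM + 0.1), -0.234 without both outlying libraries and -1.265 by DESeq2 without SAH 7d-5, where Lyz2 was -0.36 and Ms4a7 -0.309. Without both libraries Ms4a7 was -0.159, whereas Lyz2 was 0.514. With 1 library left out, Clec4a2 ranged from -1.274 to 1.992, Lyz2 from -0.367 to 4.221 and Ms4a7 from -0.324 to 1.462, each lowest without SAH 7d-5. The cause was not tested.

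With the replicate block, Clec4a2 was called in SAH 1d versus sham (4.33, adjusted p = 0.031, edgeR). Lyz2 was not called there (0.93, adjusted p = 0.0717, edgeR). In SAH 7d versus SAH 1d, Clec4a2 was -0.179 with the block. Same-numbered libraries had correlations of -0.252 to 0.197, and 0, 1 and 1 of 6 correlated best with their own number, so the numbers were not taken as pairs.

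Over all genes, SAH 7d versus SAH 1d had 252 calls by edgeR, 29 with the block, 779 with all 18 libraries, 1012 by DESeq2 and 2719 with voom. Leaving out 1 library gave 102 to 1545, highest without SAH 7d-5, and leaving out both gave 2512. SAH 1d versus sham had 4684 calls and 2462 with all 18 libraries. SAH 7d versus sham had 0 by edgeR, 459 by DESeq2, 9 with all 18 libraries, 2 with voom and 3 without SAH 7d-4. Clec4a2, Pf4 and Ms4a7 had few counts in most libraries, which limits their precision.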
